A study of Homo sapiens with 20 samples.

Results

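The loci of FOXA1, GATA2, GRHL2 and SPDEF, 4 transcription factor genes of the prostate luminal epithelium, were described from ChIP-seq lists of CTCF, H3K4me3 and H3K27ac. The members were all CTCF peaks and histone regions within 100 kb of the hg19 spans of the 4 genes, which gave 694 of the 790168 intervals in the lists: 95 CTCF peaks, 168 H3K4me3 regions and 431 H3K27ac regions. With 100 kb on either side of each gene span the windows were chr14:37958000-38165000 for FOXA1, chr3:128098000-128313000 for GATA2, chr8:102404000-102782000 for GRHL2 and chr6:34405000-34625000 for SPDEF, 1020004 bp in all.

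The study asked what becomes of CTCF binding and of active chromatin when CTCF is depleted by RNAi. LNCaP, a prostate cancer cell line, was profiled for CTCF, H3K4me3 and H3K27ac. IMR90, a lung fibroblast line, was profiled for CTCF alone, by a standard protocol and by a low-cell protocol. In each line and assay 2 libraries came from cells transfected with a pool of CTCF siRNAs and 2 from cells transfected with a non-targeting control siRNA pool, 20 nM in either case, for 144 h with a second transfection midway. Every group was thus transfected, and the histone marks of IMR90 were not analysed here. The lists give the position of each peak or region and, for CTCF, its fold enrichment over the local background of the same library. They hold no read depth. List lengths are given here, which do not stand in for depth. By the read numbers in the study's reporting summary, CTCF siRNA replicate 1 was the shallowest of the LNCaP CTCF libraries. The level of CTCF itself was not analysed here. The study reports a larger reduction of CTCF mRNA in LNCaP than in IMR90, where it used another transfection reagent. A difference between the lines cannot be told apart from these or from the separate experiments. The LNCaP CTCF lists held 38017 and 46364 peaks after control siRNA and 3724 and 7730 after CTCF siRNA, the IMR90 lists 35719 and 36890 against 19180 and 18539, and the low-cell lists 20284 and 19153 against 5111 and 2021. A peak missing from a short list may have fallen below the calling threshold, and the share of that in any loss below was not tested. The study describes its ChIP-seq experiments as biological duplicates, and the low-cell libraries only as duplicates.

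FOXA1 is a pioneer factor that opens chromatin for other transcription factors. GATA2 is a zinc finger factor that works beside it at prostate enhancers. GRHL2 maintains epithelial identity and the genes of cell junctions, and SPDEF is an ETS factor of luminal and secretory cells. H3K4me3 marks active and poised promoters, H3K27ac marks active promoters and enhancers, and long runs of H3K27ac are typical of genes that define a cell type. CTCF binds a long DNA motif with its zinc fingers, and domains of active chromatin often end near CTCF sites.

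The label of the LNCaP cells was checked on the starts of marker genes. A region within 1 kb of an annotated start was listed in all 4 H3K4me3 libraries for 5 of 5 luminal markers (KRT8, KRT18, KLK3, KLK2 and TMPRSS2), and 5 of 5 also had H3K27ac in all 4. None of 4 basal markers (KRT5, KRT14, KRT15 and TP63) had H3K4me3 in any library. H3K27ac was listed in 3 libraries for KRT15, in 1 for KRT5 and in none for KRT14 and TP63. Of 9 mesenchymal or fibroblast markers 6 had H3K4me3 in all 4 libraries, but ZEB1 was the only member with H3K27ac in all 4. Over all protein-coding genes the shares were 65.2% for H3K4me3 and 54.6% for H3K27ac.

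The CTCF sites that the comparisons turn on are shown by the closest match to the CTCF consensus motif within 100 bp of the control summit, read from the GRCh37 (hg19) genome on the strand of the motif. Each run of 30 bases has the 14 bases of the match in capitals with 8 bases on either side, and the coordinates are those of the capitals. The first site lies inside FOXA1, and the others flank the active domains of FOXA1, GATA2 and SPDEF. All but the GATA2 right flank had a peak in more standard IMR90 than LNCaP CTCF siRNA libraries. The same direction held genome-wide, where 51.4% of standard IMR90 and 9.26% of LNCaP control sites had a peak in both CTCF siRNA libraries. The sites near GRHL2 are described by their values only.

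FOXA1 gene body, chr14:38063553-38063566, minus strand, 2 mismatches: ctctaaaaCCGCTGGGTGGCGCtagtgcga
FOXA1 left flank in MIPOL1, chr14:37715732-37715745, plus strand, 1 mismatch: ttaaatgcCCAGGAGAGGGCAGcattttac
FOXA1 right flank in TTC6, chr14:38344036-38344049, minus strand, 0 mismatches: agatgtcgCCAGCAGAGGGCAGcagagggc
GATA2 left flank, chr3:128157548-128157561, minus strand, 2 mismatches: cctcttagCCTCTAGGGGGCTCtagactcc
GATA2 right flank in LINC01565, chr3:128291574-128291587, plus strand, 2 mismatches: atgtgtttCCTGCAGGGGGAGCacctttaa
SPDEF left flank, chr6:34427851-34427864, plus strand, 1 mismatch: gtacaacgCCACTAGGTGGCAAtggtatct
SPDEF right flank in ILRUN, chr6:34577514-34577527, minus strand, 2 mismatches: aggagtgaACAGCAGATGTCACtgcatctc

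The motifs flanking FOXA1 and SPDEF pointed towards each other and those flanking GATA2 pointed away from each other. The FOXA1 right flank was the only printed match without a mismatch. Of the 13 LNCaP control sites in the windows 8 had a match with at most 2 mismatches on either strand, against 74.0% of all 33413 LNCaP control sites, and 1 had a match with at most 1 mismatch, against 43.7%. Of the 11 IMR90 control sites 9 had a match with at most 2 mismatches, against 71.6% of 30523, and 2 with at most 1, against 42.5%. A missing match says only that these letters were not within 100 bp of the summit.

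CTCF binding was listed at 23 positions of the windows over the 12 CTCF libraries, 4 each around FOXA1 and SPDEF, 9 around GATA2 and 6 around GRHL2. A control site was defined as overlapping peaks of both control libraries, a persistent site as a control site that still had a peak in each of the 2 CTCF siRNA libraries, and a site lost from both as one that had none in either. After CTCF siRNA the LNCaP cells kept 1 site of 13, inside GRHL2, and no site around FOXA1, GATA2 or SPDEF.

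**Figure D1:**
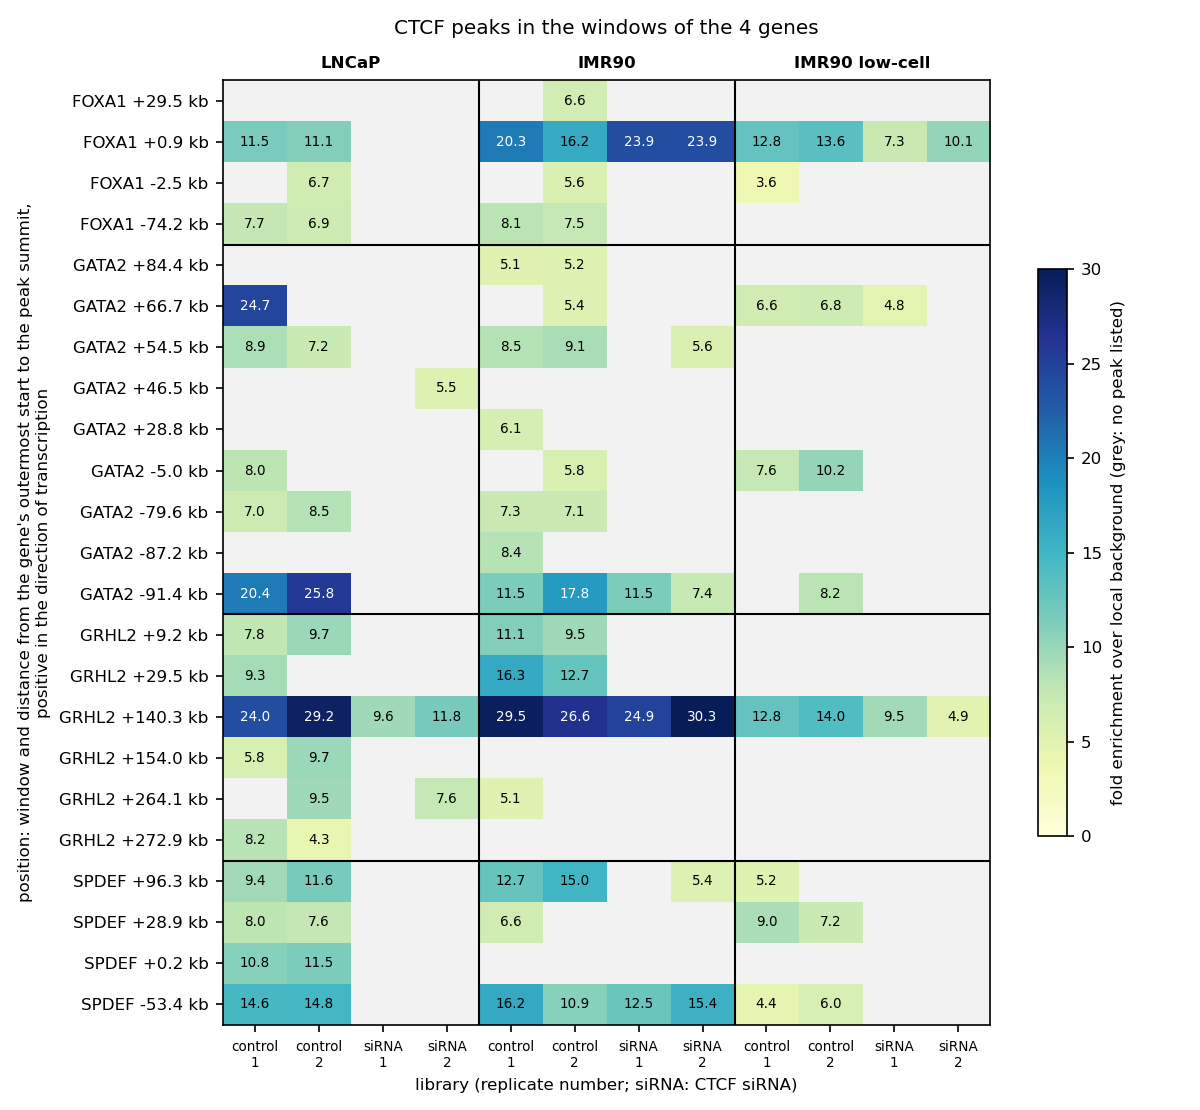
Fold enrichment over local background (colour and printed value) of each CTCF position in the 4 windows (rows, named by the gene and the distance in kb from its outermost start to the summit) in the 12 CTCF libraries (columns). Grey marks a position without a listed peak; the GRHL2 row at 140.3 kb has a value in all 12 libraries, while the FOXA1 row at 0.9 kb is empty only in the 2 LNCaP CTCF siRNA libraries.

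In LNCaP the windows held 16 and 15 CTCF peaks after control siRNA and 1 and 3 after CTCF siRNA. The groups did not overlap, with means of 15.5 ± 0.707 and 2 ± 1.41 peaks (SD, n = 2). An exact two-sided permutation over the libraries gave p = 0.33, and 2 against 2 libraries allow no smaller value. Of the 13 control sites 1 was persistent, against 9.26% of all LNCaP control sites. No site had a peak in exactly 1 CTCF siRNA library, against 12.1%, and 12 were lost from both, against 78.6%. The window sites were mostly weak ones. Their median fold enrichment was at percentile 28.4 of LNCaP control sites. Of them 6 lay in the lowest quartile, 4 in the next, 1 in the third and 2 in the highest. Genome-wide 97.7% of the lowest, 93.6% of the next, 79.5% of the third and 43.6% of the highest quartile were lost from both. With all 4 LNCaP lists shortened to their 3724 best peaks by p-value only 1 control site remained in the windows, that at -91.4 kb from GATA2, and it was lost from both, against 39.7% of 2436 such sites.

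The persistent site lay in an intron of GRHL2 at chr8:102644693-102645150 in LNCaP, 140.3 kb into the gene. It was the only position with a peak in all 12 libraries. Its fold enrichment was 23.95 and 29.2 in LNCaP control and 9.58 and 11.8 after CTCF siRNA, 29.5 and 26.6 against 24.9 and 30.3 in IMR90, and 12.8 and 13.99 against 9.48 and 4.93 in low-cell IMR90. The LNCaP and low-cell values were lower in both CTCF siRNA libraries, while those of standard IMR90 overlapped. How many of all persistent sites were also lower in both is not given, so the drop is not shown to be particular to this site. Fold enrichment is not scaled between libraries, so these values were compared as they stand and without a test. In the LNCaP lists the peak stood at percentiles 89.6 and 92.7 after control siRNA and 58.8 and 68.4 after CTCF siRNA. The motif there had 2 mismatches on the minus strand.

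The site inside FOXA1 persisted in IMR90 and was lost in LNCaP. The LNCaP peak spanned chr14:38063393-38063732, 0.9 kb downstream of the start, with its summit in exon sequence that is not annotated as coding, and it overlapped both histone marks. Its fold enrichment was 11.5 and 11.1 in LNCaP control, and no peak was listed in either LNCaP CTCF siRNA library. In IMR90 it was 20.3 and 16.2 in control and 23.9 in each CTCF siRNA library, and in low-cell IMR90 it was 12.8 and 13.6 against 7.30 and 10.1. The peak thus stayed listed in every IMR90 library and was missing from both LNCaP CTCF siRNA lists. In the control lists it stood higher in IMR90, at percentiles 79.6 and 67.3, than in LNCaP, at 54.6 and 55.0. The low-cell CTCF siRNA lists, which kept the peak, held 5111 and 2021 peaks, against 3724 and 7730 in the LNCaP lists, which lacked it. Whether list length, protocol or the extent of depletion had a part in this was not tested.

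Around GATA2 no LNCaP site persisted, and the strongest of them was lost. It lay between LINC01565 and the end of the window at chr3:128303228-128303669, at -91.4 kb from the outermost GATA2 start, on its upstream side. Its fold enrichment was 20.4 and 25.8 in LNCaP control with no peak after CTCF siRNA, and 11.5 and 17.8 against 11.5 and 7.44 in IMR90. It was in the highest quartile of LNCaP control sites and persisted in standard IMR90, where it ranked lower. In low-cell IMR90 it had a peak of 8.17 in control replicate 2 alone. The sites at the 2 flanks of the GATA2 domain had 8.86 and 7.20 on the left and 6.99 and 8.53 on the right in LNCaP control, and neither had a peak after CTCF siRNA. In IMR90 the left one, with 8.47 and 9.08 in control, kept a peak of 5.56 in CTCF siRNA replicate 2 only, and the right one, with 7.33 and 7.11, kept none.

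At SPDEF a CTCF peak lay just downstream of the annotated starts of the gene in LNCaP alone. It spanned chr6:34523660-34524084, with its summit in SPDEF exon sequence that is not annotated as coding, and had fold enrichments of 10.8 and 11.5 in control. It had no peak after CTCF siRNA and none in any IMR90 library. No motif within 2 mismatches was found there. Upstream, in an intron of ILRUN, the site at chr6:34577364-34577696 had 14.6 and 14.8 in LNCaP control and no peak after CTCF siRNA. In IMR90 it had 16.2 and 10.9 against 12.5 and 15.4, and in low-cell IMR90 4.40 and 6.04 against no peak. This site therefore persisted in standard IMR90 only, and the low-cell lists were the shorter ones. Downstream, beyond PACSIN1, a neuronal endocytosis gene, the site at chr6:34427634-34428132 had 9.41 and 11.6 in LNCaP control with none after CTCF siRNA, and 12.7 and 15.0 against a peak of 5.44 in replicate 2 only in IMR90.

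Other positions had a peak in some libraries only. An intronic GRHL2 site at 9.2 kb had 7.77 and 9.75 in LNCaP control and 11.1 and 9.53 in IMR90 control, and was lost from both CTCF siRNA libraries of either line. At 264.1 kb, in NCALD, a peak of 9.51 in LNCaP control replicate 2 and one of 7.55 in CTCF siRNA replicate 2 were listed, with 5.08 in IMR90 control replicate 1. At 46.5 kb downstream of the GATA2 start a peak of 5.495 was listed in LNCaP CTCF siRNA replicate 2 alone.

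Between EEFSEC and DNAJB8, at 66.7 kb, LNCaP control replicate 1 had a peak of 24.7 that control replicate 2 lacked, so that it was no control site. Of the 3568 peaks of that library at least as strong, 188 or 5.27% had no control replicate 2 peak. In low-cell IMR90 the position had 6.65 and 6.81 in control and 4.76 in CTCF siRNA replicate 1 alone.

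In standard IMR90 the windows held 15 and 15 peaks in control and 4 and 6 after CTCF siRNA (exact permutation test, p = 0.33). Of 11 control sites 4 persisted, against 51.4% genome-wide, 2 had a peak in exactly 1 CTCF siRNA library, against 14.7%, and 5 were lost from both, against 33.9%. In low-cell IMR90 there were 8 and 7 peaks against 3 and 2 (p = 0.33 by the same exact test). Of 6 control sites 2 persisted, against 10.9%, 1 had a peak in exactly 1 library, against 17.4%, and 3 were lost from both, against 71.7%. The 2 persistent sites of the low-cell experiment were those inside FOXA1 and GRHL2.

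Of the 13 LNCaP control sites 9 were also IMR90 control sites, against 72.5% genome-wide, and of the 11 IMR90 control sites 9 were LNCaP control sites, against 79.4%. All LNCaP sites around FOXA1 and GATA2 were shared, and 2 of 4 around each of GRHL2 and SPDEF were not. The unshared sites at GRHL2 were an intronic site at 154.0 kb, with 5.83 and 9.75, and a site in NCALD at 272.9 kb, with 8.22 and 4.33, neither with a peak in any IMR90 library. The unshared sites at SPDEF were that beside its start and that in a coding exon of PACSIN1, which had 7.97 and 7.65 in LNCaP and a peak of 6.60 in 1 standard IMR90 control library. The low-cell control libraries held the PACSIN1 site with 9.02 and 7.23, and it was lost from both after CTCF siRNA. In the other direction an intronic GRHL2 site at 29.5 kb had 16.3 and 12.7 in IMR90 control, 9.34 in LNCaP control replicate 1 and no peak elsewhere. A weak site at 84.4 kb, past the end of EEFSEC, with 5.08 and 5.20, was found in IMR90 alone. Each of the 4 sites that persisted in IMR90 was an LNCaP control site, and 3 of the 4 had no peak in either LNCaP CTCF siRNA library, against 57.4% of 15068 such sites genome-wide.

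Of the 13 LNCaP control sites 9 overlapped a consensus H3K27ac region, one listed in at least 2 of 4 libraries, against 23.2% of all control sites. For H3K4me3 it was 5 of 13 against 17.5%. The windows were chosen around genes known to be active in these cells, so these shares describe the choice as much as the sites.

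FOXA1 lay in a very long run of H3K27ac. Consensus regions joined over gaps of up to 12.5 kb gave an active domain of 312250 bp at chr14:37985451-38297700, across MIPOL1, FOXA1 and TTC6, of which 62.3% lay inside regions. It ranked 23 of 38337 domains by covered bases, and the median domain was 3000 bp wide. In the 4 libraries the domain was 245200 and 103550 bp wide in control and 312700 and 400650 bp after CTCF siRNA. Both CTCF siRNA libraries gave wider domains than both control libraries, with control replicate 2 far below the rest. How many of all domains were wider in both is not given, here or for the genes below. Of the windows of all protein-coding genes 72.4% had more H3K27ac covered bases in both CTCF siRNA libraries, which is another measure than domain width. The joined domain was 207750 bp without CTCF siRNA replicate 1, 106850 bp with gaps of up to 5000 bp and 172950 bp from regions listed in all 4 libraries. It held 3 CTCF sites, those inside FOXA1 and at 2 places in TTC6, all within H3K27ac and all lost from both CTCF siRNA libraries.

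GRHL2 lay in a domain of 310800 bp at chr8:102370851-102681650, which began upstream of the gene and ended near its last exon, with 70.8% inside regions and rank 17 of 38337. Its width was 311250 and 31600 bp in control and 312550 and 310650 bp after CTCF siRNA. Only control replicate 2 stood apart, and its list was the shortest of the mark with 70099 regions against 87146 to 99157. With gaps of up to 5000 bp the joined domain was 173250 bp wide. The domain held 3 CTCF sites on H3K27ac, the persistent one and 2 that were lost from both.

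GATA2 and SPDEF had shorter domains. That of GATA2 spanned 33900 bp at chr3:128193101-128227000, was 97.2% covered and held no CTCF site, with widths of 22750 and 30750 bp in control and 31550 and 33850 bp after CTCF siRNA. That of SPDEF spanned 44050 bp at chr6:34492901-34536950, reached into PACSIN1 and held 2 CTCF sites, both lost. The ranks were 836 and 891. The SPDEF widths overlapped, with 83500 and 42300 bp in control and 41600 and 54000 bp after CTCF siRNA.

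**Figure D2:**
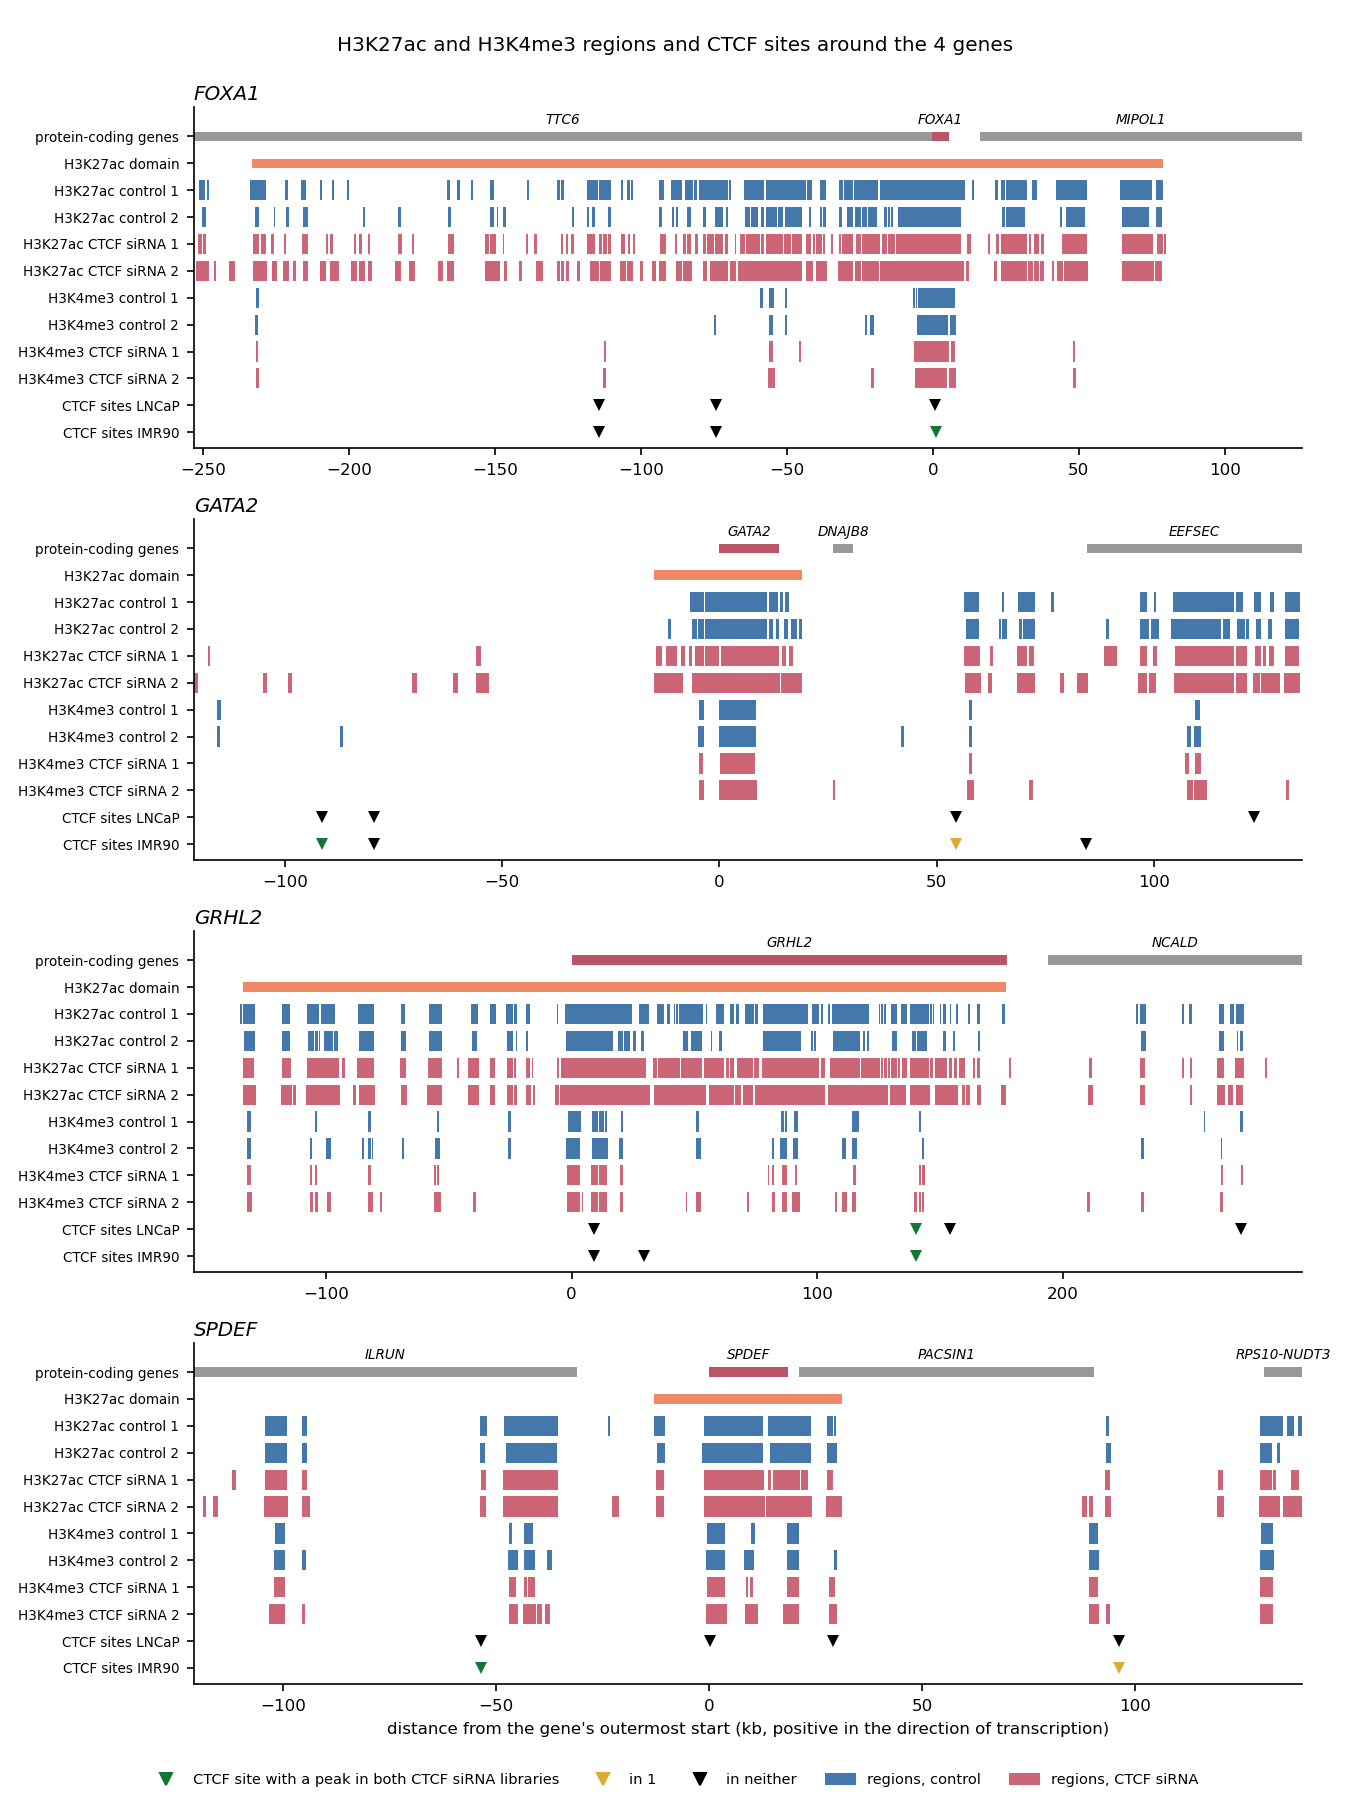
Map of each locus, with distance from the gene's outermost start in kb, positive in the direction of transcription, on the x axis. Rows show protein-coding genes, the consensus H3K27ac domain, the H3K27ac and H3K4me3 regions of each LNCaP library (blue control, red CTCF siRNA) and the control CTCF sites of LNCaP and IMR90 (triangles, green where both CTCF siRNA libraries kept a peak, yellow where 1 did, black where neither did); all LNCaP triangles are black except that inside GRHL2.

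The nearest LNCaP control CTCF site outside each end of a domain was taken as its border, at any distance. Of the 8 border sites 7 had no peak in either LNCaP CTCF siRNA library, and none was persistent, against 78.6% and 9.26% of all LNCaP control sites. The exception was the right border of FOXA1 at chr14:38343855-38344256, 46154 bp from the domain, with 18.3 and 18.6 in control and 12.9 in CTCF siRNA replicate 2 alone. In that same library the domain ran to 38386550, past the border site. The left border of FOXA1 lay 269542 bp away in MIPOL1, with 8.32 and 11.5 in control. Both FOXA1 borders persisted in IMR90.

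The left border of GRHL2 at chr8:102344959-102345485 was the strongest border site, with 28.8 and 25.8 in control and no peak in either CTCF siRNA library. It lay 25365 bp from the domain, and in the 2 CTCF siRNA libraries the domain began at 102370851 and 102371001, against 102369701 and 102502401 in control. The right border lay 95442 bp away in NCALD, the unshared site given above, and was lost from both. Of the GATA2 borders, 35383 and 64414 bp from the domain, and the SPDEF borders, 64768 and 40413 bp away, none had a peak in either library. With control siRNA the SPDEF domain ran to 34577750 in replicate 1, beyond the right border site in ILRUN, and to 34536350 in replicate 2.

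H3K27ac covered more bases of the GATA2 and GRHL2 windows in both CTCF siRNA libraries than in both control libraries, and overlapped between groups at FOXA1 and SPDEF. In the GRHL2 window 159401 and 105351 bp were covered in control and 192901 and 210151 bp after CTCF siRNA, a mean difference of 69150 bp. In the GATA2 window it was 41501 and 44401 bp against 49351 and 62951 bp, a difference of 13200 bp. Each gave p = 0.33 by the exact permutation test, the smallest possible. The GRHL2 difference was 42125 bp without control replicate 2. The GATA2 difference was 6400 bp without CTCF siRNA replicate 2 and 20000 bp without CTCF siRNA replicate 1.

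In the FOXA1 window 121800 and 87450 bp were covered in control and 115650 and 130400 bp after CTCF siRNA (p = 0.67, exact test). In the SPDEF window it was 47350 and 45550 bp against 44250 and 54550 bp (p = 1.00, exact test). Of the 4 windows 2 were thus higher in both CTCF siRNA libraries, and over the windows of all protein-coding genes 72.4% were, with 0.668% lower in both. The CTCF siRNA lists of this mark were also the longer ones, with 94628 and 99157 regions.

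**Figure D3:**
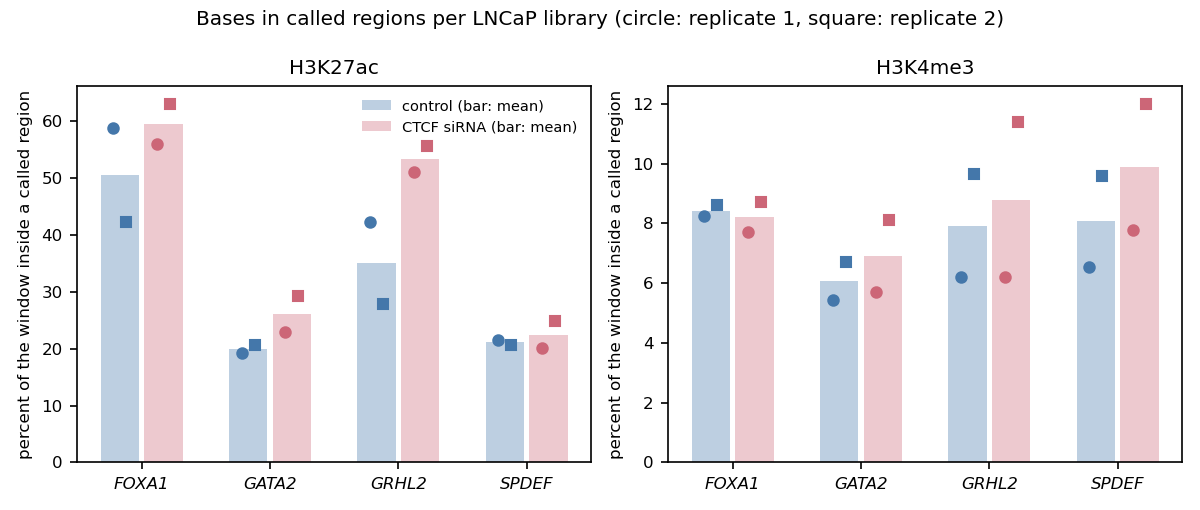
Percent of each window that lies inside a called H3K27ac region (left) or H3K4me3 region (right) in the 4 LNCaP libraries of each mark. Each window is the gene span with 100 kb on either side, and bars are at the mean of 2. For H3K27ac the GRHL2 points sit at 42.2 and 27.9 in control and 51.0 and 55.6 after CTCF siRNA; for H3K4me3 the points of the groups overlap in every window.

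Most acetylated regions were listed in all 4 libraries. Of 76 consensus H3K27ac regions in the windows 51 were, against 56.9% genome-wide, 1 was in both control libraries only, against 1.85%, and 6 in both CTCF siRNA libraries only, against 13.2%. All 9 regions of the SPDEF window were present in all 4 libraries. The control-only region lay between EEFSEC and DNAJB8, a chaperone gene, at chr3:128145951-128147050 and covered 600 and 1000 bp. On its GATA2 side, at chr3:128149151-128150350, a CTCF siRNA-only region covered 700 and 1100 bp. The other CTCF siRNA-only regions were 2 near FOXA1, 1 upstream of GATA2 and 2 on the GRHL2 side, in GRHL2 and NCALD introns, each at most 2600 bp in a library.

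An H3K27ac region at chr3:128220001-128227000 lay within GATA2-AS1, the antisense transcript that runs upstream of GATA2. It had 0 and 550 bp in control and 5200 and 6550 bp after CTCF siRNA. The upstream end of the GATA2 domain was at 128218800 and 128223850 in control and at 128226750 and 128227000 after CTCF siRNA. The groups did not overlap in either measure, but the region was picked for its values, so no test is given. Over the windows of all protein-coding genes 72.4% had more H3K27ac covered bases in both CTCF siRNA libraries. That share is of whole windows, and the share of single regions or of domain ends is not given. With all 4 lists cut to the length of the shortest the values were 0 and 550 against 4300 and 4700 bp. This region was singled out after its values were seen.

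H3K4me3 showed no such difference. In the FOXA1 window 17100 and 17800 bp were covered in control and 15950 and 18050 bp after CTCF siRNA, and in the GRHL2 window 23400 and 36450 bp against 23400 and 43200 bp. The groups overlapped in all 4 windows (p from 0.67 to 1.00, exact permutation test), where 12.4% of all genes had both CTCF siRNA libraries higher and 0.927% both lower. Of 39 consensus regions 22 were in all 4 libraries, against 58.9%, 2 in both control libraries only, against 2.55%, and 1 in both CTCF siRNA libraries only, against 6.44%. The control-only regions were in TTC6 and upstream of GRHL2, and the CTCF siRNA-only region in MIPOL1.

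The regions at the 4 starts were broad and of nearly equal width in all libraries. At FOXA1 the H3K4me3 regions within 1 kb of the start added up to 10850 and 10800 bp in control and 10750 and 11200 bp after CTCF siRNA. At GATA2 they were 8450 and 8550 against 8200 and 8750 bp. At GRHL2 they were 5300 and 5700 against 5300 and 5350 bp, and at SPDEF 4300 and 4550 against 4450 and 4900 bp.

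All 4 sets of values overlapped between the groups (p from 0.67 to 1.00, exact permutation test). Among all promoters with a region in all 4 libraries 13.5% were wider and 6.49% narrower in both CTCF siRNA libraries, and their median width was 3212 bp. FOXA1 stood between percentiles 99.5 and 99.8 of marked promoters in the 4 libraries, GATA2 between 98.6 and 99.2, GRHL2 between 89.4 and 93.1 and SPDEF between 84.4 and 86.5. The order FOXA1, GATA2, GRHL2, SPDEF held in each library.

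H3K27ac regions at the starts were wider still. They were 23550 and 21650 bp at FOXA1 in control against 22550 and 28700 bp after CTCF siRNA, and 13950 and 14250 against 13350 and 14300 bp at SPDEF, overlapping in both cases. At GATA2 they were 14000 and 14200 against 16450 and 20200 bp, and at GRHL2 27500 and 19300 against 31300 and 36600 bp. Here 2 of 4 genes were wider in both CTCF siRNA libraries, against 48.1% of 10786 promoters, with 1.67% narrower in both.

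**Figure D4:**
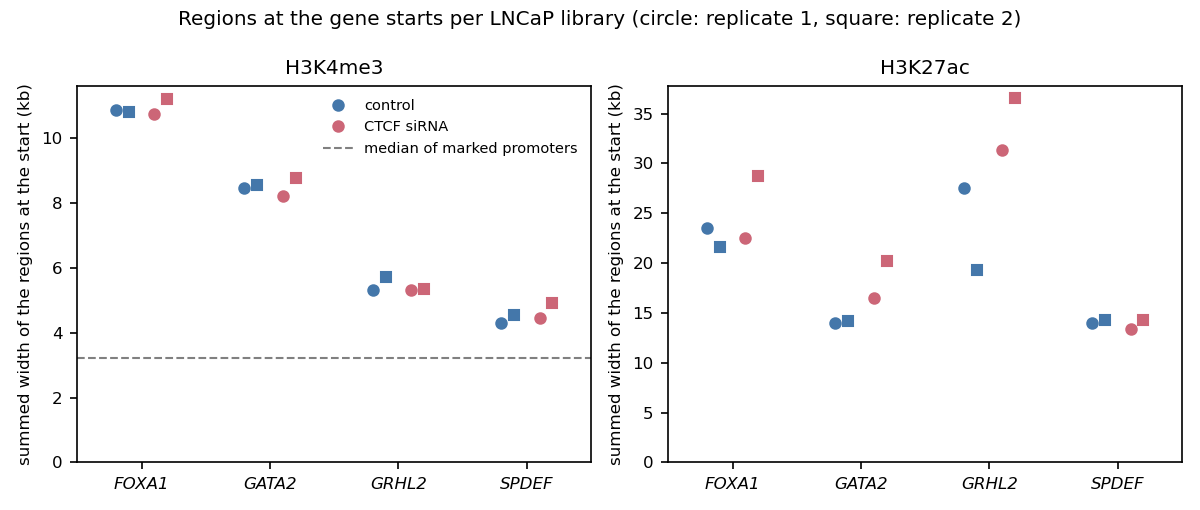
Summed width in kb of the H3K4me3 (left) and H3K27ac (right) regions within 1 kb of an annotated start of each gene, 1 point per LNCaP library. The dashed line on the left is the median H3K4me3 width of marked promoters, 3212 bp; the 4 H3K4me3 points of each gene lie close together, and the H3K27ac points of GRHL2 lie furthest apart.

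Of the other protein-coding genes that start in the windows, TTC6 shares the FOXA1 promoter region, from which it is transcribed in the opposite direction. Its start carried the same H3K4me3 widths as FOXA1 and H3K27ac of 24150 and 21650 bp in control and 23200 and 32650 bp after CTCF siRNA. PACSIN1 had an H3K4me3 region of 2050 to 2350 bp in all 4 libraries and an H3K27ac region of 1050 bp in 1. NCALD, a neuronal calcium sensor gene, had H3K4me3 of 550 to 2700 bp and no H3K27ac, and DNAJB8 had 550 bp of H3K4me3 in 1 library.

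Of 6 luminal partner factors (HOXB13, ELF3, EHF, KLF5, XBP1 and CREB3L4) 6 had H3K4me3 and 5 had H3K27ac in all 4 libraries, KLF5 being without H3K27ac. HOXB13, a homeobox factor of the prostate, had H3K4me3 over 13150 and 13050 bp in control and 12900 and 13250 bp after CTCF siRNA. Of these 6 promoters 1, that of KLF5, had wider H3K4me3 in both CTCF siRNA libraries and none narrower, against 13.5% and 6.49% of all marked promoters. Of the 5 with H3K27ac 2 were wider and none narrower, against 48.1% and 1.67%. These were EHF, an epithelial ETS factor, with 54500 and 38600 bp in control and 55350 and 54850 bp after CTCF siRNA, and XBP1, a factor of the secretory pathway, with 4250 and 3250 bp against 5650 and 8250 bp.

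All 8 epithelial genes of the GRHL2 pathway (CDH1, CLDN4, EPCAM, ESRP1, ESRP2, RAB25, OVOL1 and OVOL2) had both marks in all 4 libraries. In both CTCF siRNA libraries 0 had wider and 1 narrower H3K4me3, against 13.5% and 6.49% of all marked promoters, and 2 had wider and 0 narrower H3K27ac, against 48.1% and 1.67%. CDH1, the gene of E-cadherin, had 2650 and 2850 bp of H3K4me3 in control and 2850 and 3950 bp after CTCF siRNA. The list medians of H3K4me3 width were 4837 bp for the partner factors and 4743 bp for the pathway, between the 6950 bp of the 4 genes and the 3212 bp of all marked promoters.

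For the paralogs of FOXA1, GATA2 and GRHL2 the share with H3K4me3 was near that of all protein-coding genes, and with H3K27ac below it. Of 9 paralogs 6 had H3K4me3 in all 4 libraries, against 65.2%, with a median width of 2506 bp. In all 4 libraries 2 had H3K27ac, FOXA3 and GRHL3, against 54.6%. GATA1, GATA4 and GATA5 had no region of either mark. GATA3, the luminal GATA factor of the breast, had 1850 and 2050 bp of H3K4me3 in control, 2150 and 2550 bp after CTCF siRNA and no H3K27ac. Of the 6 marked paralogs this was the only one with wider H3K4me3 in both CTCF siRNA libraries, against 13.5% of all marked promoters.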

How the data were processed

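The 20 libraries were 2 replicates of each of 10 combinations of cell line, assay and siRNA. CTCF peaks were called by the authors with MACS2 per library at a false discovery rate of 0.05, after alignment to hg19 with Bowtie (standard protocol) or cutadapt and BWA (low-cell protocol), and histone regions were called with PeakRanger. The deposited CTCF lists give fold enrichment as a ratio to local background, and −log10 p-values and −log10 q-values. The deposited histone lists give a score per region, used here only to rank regions, lower first and then wider. Read depth is not in these lists, so no counting interval was given.

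Intervals on the main chromosomes were used. Overlap meant at least 1 bp. Consensus histone regions were those in at least 2 of 4 libraries, joined over gaps up to 12.5 kb into domains. Genes came from GENCODE 44 mapped to GRCh37. Promoter regions were those within 1 kb of an annotated start. Totals were compared by a two-sided exact permutation test over libraries. Scripts used Python 3.11.15, numpy 2.4.6, pandas 2.3.3, scipy 1.17.1, matplotlib 3.10.9 and pysam 0.24.0, and were tested on simulated data.

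Named features were the 4 genes, border sites, sites inside the genes, sites with a peak after CTCF siRNA, sites of 1 cell line, other genes starting in the windows, and up to 4 examples of each gene list. The members and lists were chosen with earlier results of these data known. Alternatives were other window sizes, thresholds, gaps, list lengths and left-out replicates. Some genes of the lists are not reported here.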

Additional observations from a re-analysis of the deposited data

How the results depend on the processing

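Of 186 alternative values 14 reversed in direction and 22 moved by more than the limits set for them. The limits were 1.5 times for counts and the SD over the 4 libraries for domain widths. The other 150 kept their direction or stayed within these limits, though some differed in size. For GRHL2 control replicate 2 gave a domain of 31600 bp, which made this SD wide and the limit loose. With 2 libraries a group no p could reach 0.05, so p-values say nothing of stability here. Windows of 50 and 200 kb on either side of the gene spans gave 7 and 23 LNCaP control sites and 6 and 19 lost sites. They gave 4 and 17 sites shared with IMR90, and 2 and 8 persistent IMR90 sites. Windows of 200 kb gave 3 persistent LNCaP and 4 persistent low-cell sites. With lists of equal length LNCaP kept 1 control site, lost and shared, and 0 persistent sites, low-cell IMR90 had 0 persistent sites, and a q-value of at most 0.001 left 1. Leaving out a replicate gave 15 to 16 LNCaP control sites, 12 to 15 lost, 1 to 1 persistent, 9 to 10 shared, and 4 to 6 persistent IMR90 and 2 to 3 low-cell sites. Motif matches with at most 1 mismatch were 1 in LNCaP and 2 in IMR90.

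The FOXA1 H3K4me3 difference of -450 bp became 350 bp in the regions with the lowest scores, 125 bp with shortened lists, and 50 and 1825 bp with windows of 50 and 200 kb. Without a replicate the H3K4me3 differences ran from -1500 to 600 bp at FOXA1, -725 to 4425 bp at GATA2, -6525 to 13275 bp at GRHL2 and -650 to 8600 bp at SPDEF. The H3K27ac differences ran from 1225 to 35575, 6400 to 20000, 42125 to 96175 and -2200 to 8100 bp. H3K4me3 promoter differences ran from -75 to 375, -300 to 250, -375 to 25 and 25 to 475 bp. The FOXA1 domain was 106850 bp with gaps up to 5000 bp and 172950 bp from regions in all 4 libraries, which gave 25950 bp at GATA2. Gaps up to 25000 bp gave 85000 bp at SPDEF. The cause of these changes was not tested.

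Replicates share only numbers, which nothing ties to a common culture. With the replicate number as a block the GRHL2 H3K27ac difference was again 69150 bp (exact sign-flip permutation test, p = 0.50, the smallest possible with 2 pairs), and no call could be made with or without it. The GATA2-AS1 values with shortened lists, and those of 0 and 0 bp against 4300 and 4700 bp in the regions with the lowest scores, came from alternatives chosen after seeing the data.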
